A study of Mus musculus with 9 samples.

Results

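The ErbB receptors and their EGF-like ligands were examined in mammary tumours of MMTV-Wnt1 mice and in normal mammary glands. The family was defined by gene symbol, as the 4 receptors Egfr, Erbb2, Erbb3 and Erbb4 and the ligands Egf, Areg, Ereg, Btc, Hbegf and Nrg1, which makes 10 genes. Of these, 9 had a probe set with their symbol alone and are described here, out of 22180 genes on the array, and all 9 passed the filter on low values. Areg was not analysed here. Gene expression had been measured on Affymetrix Mouse Gene 2.0 ST arrays, 1 array for each of 9 female FVB mice, and values are on the log2 scale, on which a difference of 1 is a doubling of signal.

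The arrays came from 3 metastatic tumours, 3 non-metastatic tumours and 3 normal mammary glands. Both tumour groups had the genotype Wnt1+/-, that is, they carried the MMTV-Wnt1 transgene, in which a mouse mammary tumour virus promoter active in mammary epithelium drives the secreted protein Wnt1. Normal glands came from littermates labelled as wild type for Wnt1. All mice drank a 6% sucrose solution with 200 µg/ml doxycycline, and no gene controlled by doxycycline is named in the labels. Tumours were taken when they measured 20 mm, at 281 to 300 days of age in the metastatic group and 222 to 354 days in the non-metastatic group. Age at onset was 251, 194 and 242 days for metastatic tumours 1 to 3 and 306, 192 and 247 days for non-metastatic ones. Mice with normal glands were older, at 533 to 556 days. Comparisons with normal gland therefore cannot be told apart from comparisons of age. The mean level of Wnt1 was 11.75 ± 0.48 for metastatic tumours, 12.02 ± 0.33 for non-metastatic ones and 5.59 ± 0.13 for normal glands (SD over 3 arrays each).

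ErbB receptors are receptor tyrosine kinases of the cell surface. EGF-like ligands are made as membrane proteins, are cut free by proteases, and bring receptors together in pairs whose cytoplasmic tails then activate the RAS-ERK and PI3K-AKT pathways. Egfr binds Egf, Areg, Tgfa, Ereg, Btc and Hbegf, while Erbb3 and Erbb4 bind neuregulins such as Nrg1, and Erbb2 has no ligand of its own and serves as the partner of the others. In the mammary gland Egfr takes part in duct growth, and Erbb4 in alveolar development and milk production.

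A pair of arrays stood apart in marker genes of other tissues. Whether these tissues had a part in the values of family genes was not tested. Metastatic tumour 2 carried salivary gland transcripts. Its score over 8 measured salivary genes was 5.27, against -0.03 and -0.29 in metastatic tumours 1 and 3, -1.17 to -0.73 in non-metastatic tumours and -0.82 to -0.64 in normal glands. A score is the mean over a list of each gene's log2 value minus its mean over the 9 arrays. Muc19, a salivary mucin, lay at 12.10 there and between 5.41 and 5.77 on the other 8 arrays. Amy1, from the same list, did not follow this, at 5.03 in metastatic tumour 2 and 7.22 to 7.99 in normal glands. Normal gland 2 carried transcripts of skin and skeletal muscle, with a score of 3.51 for differentiated epidermis against at most 0.59 on any other array, and 3.23 for skeletal muscle against at most 1.15. Krt8 and Krt18, keratins of mammary luminal cells, lay above the array median on all 9 arrays, and were lowest in normal gland 2. White adipocyte genes were lower in every tumour than in every normal gland for all 11 genes measured. In tissue pieces like these, fewer cells of a type and less RNA per cell cannot be told apart.

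Erbb2 and Erbb3 were the family members with higher expression in the tumours that passed the test. Erbb2, the receptor without a ligand, measured 9.08, 8.81 and 8.76 for metastatic tumours and 8.74, 9.04 and 8.45 for non-metastatic ones against 8.11, 8.24 and 8.18 for normal glands. Every tumour lay above every normal gland, and the normal glands differed among themselves by only 0.14. Over both tumour groups Erbb2 rose by 0.64 (SE 0.14, adjusted p = 0.016), a 1.56-fold difference. It rose by 0.71 in metastatic tumours (SE 0.16, adjusted p = 0.029) and by 0.57 in non-metastatic tumours (SE 0.16, adjusted p = 0.043). The size held between 0.56 and 0.72 over 19 alternative settings for both tumour groups together. The call over both groups was lost without normal gland 1 (adjusted p = 0.063) and without normal gland 2 and metastatic tumour 2 together (0.072). The call in non-metastatic tumours held in 7 of 20 settings and was lost with any array but non-metastatic tumour 3 left out. In metastatic tumours it held in 13 of 20 and was lost without any 1 of the metastatic tumours, without normal gland 1 and without normal gland 2.

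Erbb3, which binds neuregulins and signals mainly through its partner receptors, measured 10.996, 10.07 and 10.94 for metastatic tumours and 10.89, 11.02 and 10.53 for non-metastatic ones. In normal glands it measured 9.76, 9.17 and 10.16. All non-metastatic tumours were above all normal glands, whereas metastatic tumour 2 lay just under normal gland 3. Over both tumour groups Erbb3 rose by 1.05 (SE 0.28, adjusted p = 0.030), a 2.06-fold difference, and in non-metastatic tumours by 1.12 (SE 0.32, adjusted p = 0.045). In metastatic tumours the difference of 0.97 did not pass (SE 0.32, adjusted p = 0.079). Without normal gland 2 the difference over both tumour groups was 0.78 and no longer passed (adjusted p = 0.11). It also failed without normal gland 1, metastatic tumour 1 or 3, or non-metastatic tumour 1 or 2, each taken out alone (adjusted p between 0.052 and 0.084). The call in non-metastatic tumours held in 8 of 20 settings. Among single arrays left out it held only without metastatic tumour 2 or normal gland 3, and without normal gland 2 the difference was 0.85 (adjusted p = 0.13).

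Luminal epithelial markers moved with Erbb3. The score of 12 luminal genes was 0.61, 0.09 and 0.51 for metastatic tumours, 0.51, 0.51 and 0.24 for non-metastatic ones and -0.39, -1.95 and -0.14 for normal glands. Metastatic tumour 2 had the lowest luminal score and the lowest Erbb3 among the tumours, and normal gland 2 the lowest of both among all arrays. The summed linear signal of the 12 genes ranged from 18630 to 22250 in metastatic tumours, from 19030 to 21980 in non-metastatic tumours and from 4486 to 14180 in normal glands. Of the 12, 6 rose over both tumour groups and 0 fell, where 13.6% of all genes were called as higher and 9.13% as lower. Their part in the Erbb2 and Erbb3 results was not tested.

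**Figure D1:**
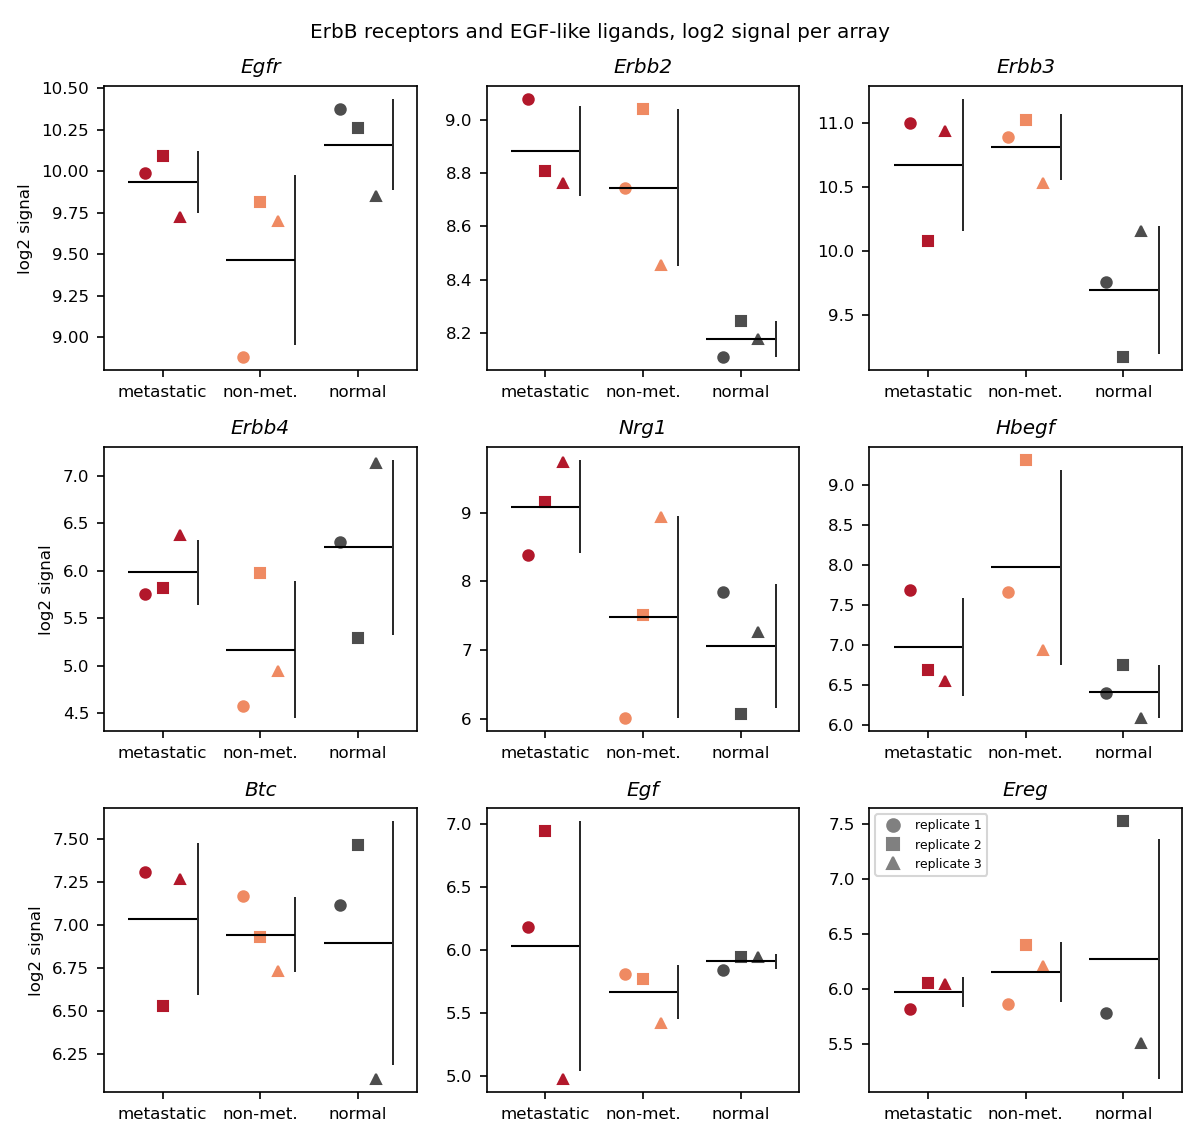
Log2 signal (vertical axis) of the 9 family genes on each array, with metastatic tumours left, non-metastatic tumours in the middle and normal glands right. Symbols mark the replicate number, horizontal lines the group mean and vertical lines 1 SD either side (n = 3). Erbb2 lies above 8.4 in every tumour and below 8.3 in every normal gland, while Nrg1 is spread widely among non-metastatic tumours.

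Egfr passed in none of the comparisons. Egfr, the receptor for Egf and Tgfa, measured 9.99, 10.09 and 9.72 for metastatic tumours, 8.88, 9.81 and 9.70 for non-metastatic ones and 10.37, 10.26 and 9.85 for normal glands. All non-metastatic tumours lay below all normal glands, and non-metastatic tumour 1 was the lowest array. The difference from normal gland was -0.70 in non-metastatic tumours (SE 0.26, adjusted p = 0.097) and -0.23 in metastatic tumours (SE 0.26, adjusted p = 0.60). Without non-metastatic tumour 1 the first of these was -0.40 (adjusted p = 0.19), and with array weights it passed at -0.88 (adjusted p = 0.019). Fibroblast markers had a list score of -0.15, 0.13 and -1.15 for metastatic tumours, -0.48, -2.29 and 0.44 for non-metastatic ones and between 1.07 and 1.25 for normal glands. Among metastatic tumours the order was the same for the score and Egfr. Among non-metastatic ones it was not, since tumour 1 had the lowest Egfr and tumour 2 the lowest score. The part of fibroblasts in the Egfr values was not tested.

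Erbb4 had the widest spread among the receptors. Erbb4, the neuregulin receptor of milk-secreting epithelium, measured 5.75, 5.82 and 6.38 for metastatic tumours, 4.58, 5.97 and 4.95 for non-metastatic ones and 6.31, 5.30 and 7.14 for normal glands. These values lay near the array median of 5.80 to 5.94, and in non-metastatic tumour 1 under the 30th percentile of its array. The groups overlapped, with differences of -1.08 for non-metastatic tumours (SE 0.50, adjusted p = 0.17) and -0.26 for metastatic tumours (SE 0.50, adjusted p = 0.76) against normal gland. The difference for metastatic tumours was 0.18 without normal gland 3.

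Among the 5 ligands of the family measured here, Nrg1 had the largest difference between metastatic tumours and either other group, and it did not pass. Nrg1, the ligand of Erbb3 and Erbb4, measured 8.38, 9.15 and 9.74 for metastatic tumours, 6.00, 7.51 and 8.94 for non-metastatic ones and 7.84, 6.06 and 7.26 for normal glands. Metastatic tumours all lay above the normal glands, and non-metastatic tumour 3 lay among the metastatic tumours. The difference was 2.03 between metastatic tumours and normal gland (SE 0.76, adjusted p = 0.11), a 4.09-fold difference in signal, and 0.43 between non-metastatic tumours and normal gland (SE 0.76, adjusted p = 0.73). Between the tumour groups it was 1.60 (SE 0.76, 95% interval -0.13 to 3.34, adjusted p = 0.88). It was 0.86 without non-metastatic tumour 1 and 2.33 without non-metastatic tumour 3, with no call in 21 settings. Without normal gland 2 the difference from normal gland was 1.54 for metastatic tumours (adjusted p = 0.30) and -0.07 for non-metastatic tumours.

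Basal and myoepithelial markers were lower in non-metastatic tumours 1 and 2, by their score, than on any other array. The score over 12 genes was 0.52, 0.61 and 0.34 for metastatic tumours and -1.09, -0.77 and 0.19 for non-metastatic ones, so that within the non-metastatic group tumour 1 was lowest and tumour 3 highest in both the score and Nrg1. Among metastatic tumours the order was not the same, since tumour 3 had the highest Nrg1 and the lowest score. Normal glands had scores of -0.01, 0.20 and 0.03. Not every gene of the list followed the score. In non-metastatic tumours 9 of the 12 had a lower mean than in normal glands, and 3, Itgb4, Krt17 and Trp63, a higher one. Itgb4 had its highest value of all arrays in non-metastatic tumour 1, at 9.78. Summed linear signal ranged from 14140 to 15630 for metastatic tumours, 4017 to 10140 for non-metastatic ones and 9101 to 10620 for normal glands. The part of these cells in the Nrg1 values was not tested.

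Hbegf, a heparin-binding ligand of Egfr and Erbb4, was highest in non-metastatic tumours. It measured 7.69, 6.70 and 6.55 for metastatic tumours, 7.67, 9.32 and 6.94 for non-metastatic ones and 6.40, 6.76 and 6.09 for normal glands. All non-metastatic tumours lay above all normal glands, with non-metastatic tumour 2 far above the rest. The difference from normal gland was 1.56 in non-metastatic tumours (SE 0.58, adjusted p = 0.095) and 0.56 in metastatic tumours (SE 0.58, adjusted p = 0.55). Without non-metastatic tumour 2 the first was 0.89 (adjusted p = 0.19), without non-metastatic tumour 3 it passed at 2.08 (adjusted p = 0.042), and it passed with array weights at 1.70 (adjusted p = 0.031). The difference of metastatic from non-metastatic tumours was -0.996 (SE 0.58, adjusted p = 0.88), and -0.32 without non-metastatic tumour 2.

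The highest value of Egf and the highest value of Ereg each came from an array with transcripts of another tissue. Egf, the founding ligand of the family and a product of salivary gland in mice, measured 6.18, 6.94 and 4.97 for metastatic tumours, 5.81, 5.77 and 5.42 for non-metastatic ones and 5.84, 5.94 and 5.95 for normal glands. Its highest value was in metastatic tumour 2, the array with the salivary score of 5.27. The difference between metastatic and non-metastatic tumours was 0.37 (SE 0.42, adjusted p = 0.92) with that tumour and -0.09 without it, and 0.89 without metastatic tumour 3, the lowest array. The part of salivary tissue in the Egf values, that of metastatic tumour 2 included, was not tested.

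Ereg, an Egfr and Erbb4 ligand made by keratinocytes among other cells, measured 5.82, 6.05 and 6.05 for metastatic tumours, 5.86, 6.40 and 6.21 for non-metastatic ones and 5.78, 7.52 and 5.51 for normal glands. The value of 7.52 came from normal gland 2, where the epidermis score was 3.51. Another Ereg probe set, with a lower mean and not used here, did not show this peak. It was at 5.67 in normal gland 2 and between 5.63 and 5.85 on all arrays. This probe set had the identical value on 6 arrays, normal gland 2 and all metastatic tumours among them. With so little variation it could not serve as a check on the peak. Ereg differed from normal gland by -0.30 in metastatic tumours (SE 0.47, adjusted p = 0.71) and by -0.11 in non-metastatic tumours (SE 0.47, adjusted p = 0.89). Without normal gland 2 these differences were 0.33 and 0.51, of the opposite sign, as they also were with array weights, at 0.12 and 0.31. Of the arrays other than normal gland 2, non-metastatic tumour 2 had the highest Ereg and the highest epidermis score, 0.59. Whether skin tissue had a part in the Ereg values was not tested.

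Btc, a ligand of Egfr and Erbb4, had close group means. It measured 7.31, 6.53 and 7.27 for metastatic tumours, 7.17, 6.93 and 6.73 for non-metastatic ones and 7.12, 7.47 and 6.10 for normal glands. The differences were 0.14 for metastatic tumours (SE 0.36, 95% interval -0.68 to 0.96) and 0.05 for non-metastatic tumours (SE 0.36, 95% interval -0.77 to 0.87) against normal gland, with adjusted p of 0.83 and 0.94. The arrays within a group spread over up to 1.36. Without normal gland 3 the differences were -0.26 and -0.35, of the opposite sign, and without normal gland 2 they were 0.42 and 0.33.

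**Figure D2:**
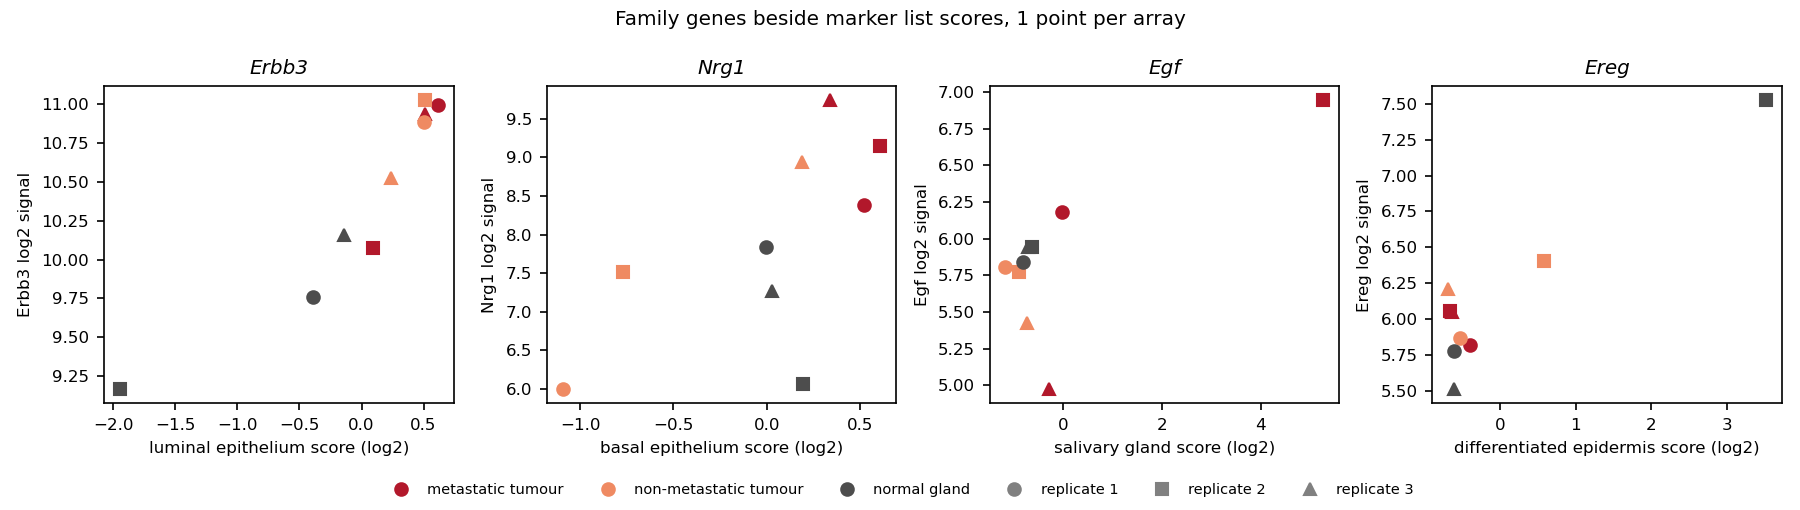
Log2 signal of Erbb3, Nrg1, Egf and Ereg (vertical axes) against the score of a marker list (horizontal axes, log2), 1 point per array, coloured by group with the replicate number as symbol. Normal gland 2 is lowest in luminal score at -1.95 and in Erbb3 at 9.17, metastatic tumour 2 is apart in salivary score at 5.27, and normal gland 2 in epidermis score at 3.51.

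Across the 9 family genes, calls were counted in each comparison and set beside the share over all genes. Between metastatic and non-metastatic tumours limma called 0 of 9 after adjustment, where 0.00572% of all 17478 genes tested were called. At an unadjusted p under 0.05 it was 0 of 9, and 886 of all genes tested. Their median difference was 0.14, against -0.02 over all genes. In non-metastatic tumours against normal gland 2 of 9 rose and 0 fell, where 18.8% of all genes were called, 11.2% as higher and 7.6% as lower. In metastatic tumours against normal gland 1 of 9 rose and 0 fell, where 13.3% were called, 7.35% as higher and 6% as lower. The medians in these comparisons were 0.05 and 0.14, against 0.05 and 0.04 over all genes. Over both tumour groups 2 of 9 rose, with 22.8% of all genes called, 13.6% as higher and 9.13% as lower, and 1 of 9, Erbb2, did not overlap, where 26% of all genes did not (15.7% higher and 10.3% lower). The comparisons with normal gland share the same 3 normal arrays.

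Against normal gland, 5 of 9 did not overlap in non-metastatic tumours, where 36.2% of all genes did not (21.9% higher and 14.3% lower), and these were Egfr and Egf on the lower side and Erbb2, Erbb3 and Hbegf on the higher side. In metastatic tumours 2 of 9 did not overlap, Erbb2 and Nrg1, both higher, where 38.5% of all genes did not (23.2% higher and 15.3% lower). Between the tumour groups 0 of 9 were without overlap, where 10.3% of all genes were (4.41% higher and 5.84% lower).

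**Figure D3:**
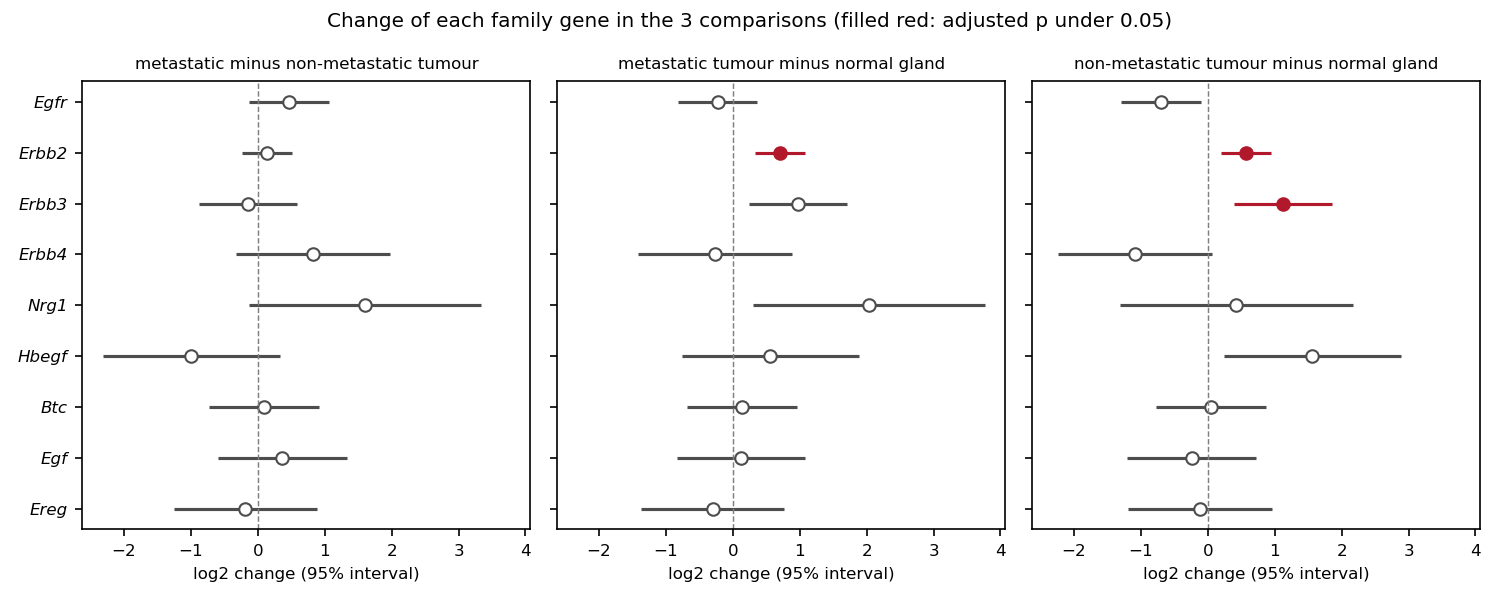
Log2 change with its 95% interval (horizontal axis) of each family gene in 3 comparisons, 1 row per gene. Filled red points passed an adjusted p under 0.05, which holds for Erbb2 in both comparisons with normal gland and for Erbb3 in non-metastatic tumours, and for none between the tumour groups.

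The other EGF-like ligands Tgfa, Epgn, Nrg2, Nrg3 and Nrg4 include the change with the lowest adjusted p in the wider family. Nrg4, a neuregulin known as a secreted product of fat tissue and a ligand of Erbb4, measured 5.79, 5.70 and 5.94 for metastatic tumours, 5.96, 5.64 and 5.84 for non-metastatic ones and 8.02, 8.27 and 7.51 for normal glands. It fell by 2.12 over both tumour groups (SE 0.17, adjusted p = 4.7e-04), and all tumours were below all normal glands. The call held in 19 of 19 settings. In tumours Nrg4 lay near the array median of 5.80 to 5.94. White adipocyte genes fell with it, 11 of 11 tested over both tumour groups with a median of -4.92, and their summed linear signal was 2841 to 3150 for metastatic tumours, 2142 to 4954 for non-metastatic ones and 32740 to 56030 for normal glands. Their part in the Nrg4 result was not tested.

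Tgfa, an Egfr ligand, was higher in tumours. It measured 7.65, 7.91 and 7.40 for metastatic tumours, 7.04, 8.77 and 9.30 for non-metastatic ones and 6.16, 6.94 and 6.08 for normal glands, without overlap between tumours and normal glands. It rose by 1.62 over both tumour groups (SE 0.46, adjusted p = 0.039), a 3.07-fold difference, and by 1.98 in non-metastatic tumours (SE 0.53, adjusted p = 0.037), with a difference of 1.26 for metastatic tumours (SE 0.53, adjusted p = 0.15). The call over both groups held in 11 of 19 settings. It was lost without any 1 of the normal glands or metastatic tumours and without non-metastatic tumour 2, at an adjusted p up to 0.13. The call in non-metastatic tumours held in 10 of 20 settings and was lost with any 1 array but non-metastatic tumour 1 left out, at an adjusted p up to 0.11, and in metastatic tumours Tgfa passed in 3 of 20 settings.

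Nrg2, a neuregulin related to Nrg1, measured 7.17, 8.87 and 8.63 for metastatic tumours, 6.51, 7.05 and 7.41 for non-metastatic ones and 6.75, 6.53 and 7.01 for normal glands. Metastatic tumours 2 and 3 were above every other array. Its difference was 1.46 between metastatic tumours and normal gland (SE 0.43, adjusted p = 0.060), and 1.24 between the tumour groups (SE 0.43, unadjusted p = 0.021, adjusted p = 0.88). The first passed without metastatic tumour 1, at 1.99 (adjusted p = 0.019). Epgn, an epithelial mitogen, was highest in non-metastatic tumour 2 at 6.36 and in normal gland 2 at 5.94, and lay between 4.35 and 4.97 elsewhere. Those 2 arrays had the highest epidermis scores, and a part of skin tissue in the Epgn values was not tested. Nrg3 stayed between 5.09 and 5.48 on all arrays.

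**Figure D4:**
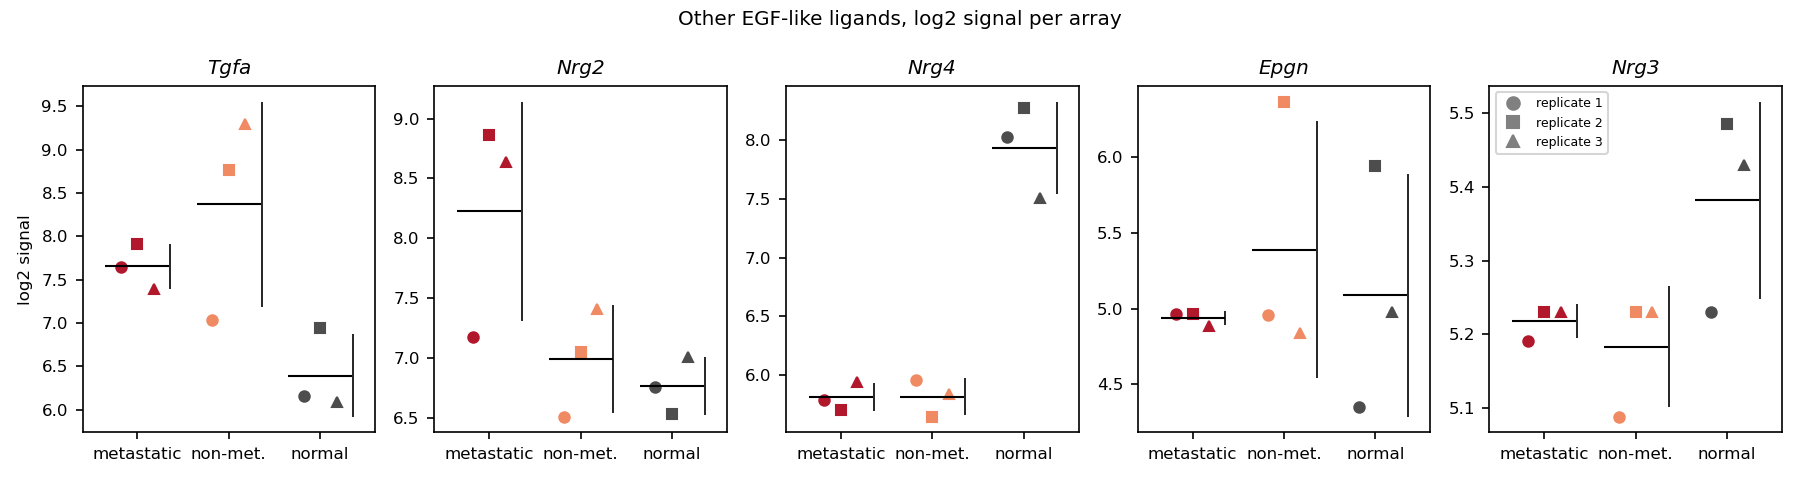
Log2 signal (vertical axis) of 5 further EGF-like ligands on each array, metastatic tumours left, non-metastatic tumours in the middle and normal glands right, with group means and 1 SD (n = 3). Nrg4 is below 6 in every tumour and above 7.5 in every normal gland, and Tgfa is above 7 in every tumour.

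Promoter sequences are shown for the wider family's genes that passed over both tumour groups, since these are the genes for which a transcript difference was measured. Of 4 such genes, Erbb2, Erbb3, Tgfa and Nrg4, the RefSeq promoter table of GRCm38.p6 held 3. The 250 bases before the transcript start are given 5′ to 3′ on the gene's strand, at chr11:98412234-98412483 on the plus strand for Erbb2, chr6:86194972-86195221 on the plus strand for Tgfa and chr9:55283626-55283875 on the minus strand for Nrg4. Capitals mark matches, on either strand, to the core letters GGAAGT of ETS factors and CTTTGA of TCF/LEF factors. ETS factors include nuclear targets of ERK, and TCF/LEF factors act in the Wnt pathway. The sources used here give no build for the array annotation.
Erbb2: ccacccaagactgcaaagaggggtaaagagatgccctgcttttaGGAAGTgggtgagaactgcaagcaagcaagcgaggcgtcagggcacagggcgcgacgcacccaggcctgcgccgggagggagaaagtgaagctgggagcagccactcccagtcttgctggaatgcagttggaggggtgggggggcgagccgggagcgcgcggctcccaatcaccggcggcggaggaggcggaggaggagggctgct
Tgfa: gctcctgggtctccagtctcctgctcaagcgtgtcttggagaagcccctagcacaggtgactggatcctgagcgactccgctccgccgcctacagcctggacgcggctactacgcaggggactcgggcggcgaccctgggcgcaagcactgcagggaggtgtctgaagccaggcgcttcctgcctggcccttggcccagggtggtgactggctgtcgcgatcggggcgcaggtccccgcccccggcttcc
Nrg4: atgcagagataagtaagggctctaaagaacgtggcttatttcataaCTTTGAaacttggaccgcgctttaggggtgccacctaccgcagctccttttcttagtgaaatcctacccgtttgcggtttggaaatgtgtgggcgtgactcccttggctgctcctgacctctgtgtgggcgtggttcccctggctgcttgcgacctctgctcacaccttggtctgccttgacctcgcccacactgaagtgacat
Erbb2 held 1 ETS match, 206 to 201 bases before the start, and Nrg4 held 1 TCF/LEF match, 204 to 199 bases before the start. In this window Tgfa held neither set of letters. Of 9 genes of the wider family counted in the promoter table, 2 held the ETS letters, Erbb2 and Egf, of which Egf passed in no comparison, and 1 held the TCF/LEF letters. This family count left out any window on 1 chromosome, a step not applied to the count over all windows. Of 32851 promoter windows of the same length, 19.7% held the ETS letters and 13.8% the TCF/LEF letters on either strand. GC content was 66.0% for Erbb2, 69.2% for Tgfa and 53.2% for Nrg4.

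Grb7, an adaptor that binds phosphorylated ErbB receptors, is the second gene after Erbb2 in the RefSeq table and also rose. It measured 9.09, 8.35 and 8.85 for metastatic tumours, 8.67, 8.58 and 8.13 for non-metastatic ones and 7.62, 7.19 and 7.70 for normal glands, a rise of 1.11 over both tumour groups (SE 0.20, adjusted p = 0.0091). Of the 5 nearest protein-coding genes on each side of Erbb2 in the RefSeq table, chosen for description after the values were seen, 8 were tested. Grb7 rose, Ormdl3 fell by 0.58 (adjusted p = 0.017) and the other 6 did not pass. Pgap3, next to Erbb2, was 0.47 higher (adjusted p = 0.057) and Mien1, its neighbour on the other side, was at -0.16 (adjusted p = 0.43).

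Among 10 proteases and regulators of ligand release, Adam10 rose and Adam12 and Adam19 fell over both tumour groups, and the other 7 did not pass, where 22.8% of all genes were called. In each tumour group 1 rose and 1 fell against normal gland, where 13.3% of all genes were called in metastatic and 18.8% in non-metastatic tumours, with medians of 0.04 in metastatic and -0.03 in non-metastatic tumours. Adam10, a sheddase that releases Egf and Btc, measured 10.98, 10.88 and 11.17 for metastatic tumours, 10.89, 10.97 and 10.91 for non-metastatic ones and 10.37, 10.28 and 10.39 for normal glands. It rose by 0.62 over both tumour groups (SE 0.09, adjusted p = 0.0042), in 19 of 19 settings. Adam12, a related protease of stromal cells, fell by 1.07 (SE 0.18, adjusted p = 0.0074), in 19 of 19 settings, and Adam19 fell by 0.65 (SE 0.19, adjusted p = 0.043), a call that held in 8 of 19 settings with an adjusted p up to 0.17 and a change down to -0.41. Of 11 fibroblast genes tested 3 fell and 0 rose over both tumour groups, and their part in the Adam12 and Adam19 results was not tested. Adam17, the main sheddase of Tgfa and Hbegf, was 0.30 higher and did not pass (SE 0.11, adjusted p = 0.075).

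Of 29 adaptors and kinases downstream of the receptors, 23 were tested. Over both tumour groups 5 rose, 1 fell and 17 did not pass, where 13.6% of all genes were called as higher and 9.13% as lower, with a median of 0.07 against 0.04 over all genes. Beside Grb7 the genes that rose were Sos1 by 0.53 (SE 0.09, adjusted p = 0.0076) and Sos2 by 0.36 (SE 0.08, adjusted p = 0.016), exchange factors that switch RAS on, and Map2k1 by 0.43 (SE 0.11, adjusted p = 0.026), an ERK-activating kinase, with Nras, a RAS protein, as the fifth. The Map2k1 call held in 12 and the Nras call in 13 of 19 settings. Akt2, a kinase of the PI3K pathway with a known role in insulin response of fat, fell by 0.94 (SE 0.11, adjusted p = 0.0020), in 19 of 19 settings. It was at 9.06, 9.05 and 9.01 for metastatic tumours, 8.92, 8.88 and 8.96 for non-metastatic ones and 9.98, 10.11 and 9.66 for normal glands. White adipocyte genes fell on the same arrays, and their part in the Akt2 result was not tested.

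Feedback inhibitors of receptor and ERK signalling included Dusp6, Spred1, Socs5 and Spred2 among the genes that rose. Of 21 tested, 4 rose in metastatic tumours and 5 in non-metastatic tumours, with 0 falling in either, where 7.35% of all genes in metastatic and 11.2% in non-metastatic tumours were called as higher. Differences were positive for 19 of 21 in each, and for 9643 and 9717 of all 17478 genes. Their medians were 0.49 and 0.41, against 0.04 and 0.05 over all genes. Dusp6, a phosphatase that switches ERK off, measured 10.74, 11.53 and 10.83 for metastatic tumours, 10.75, 11.33 and 10.75 for non-metastatic ones and 9.87, 9.45 and 9.08 for normal glands, and rose by 1.52 over both groups (SE 0.24, adjusted p = 0.0059). Spred1, an inhibitor of RAS-ERK signalling, rose by 0.81 (SE 0.12, adjusted p = 0.0041) and Socs5, which promotes Egfr breakdown, by 0.79 (SE 0.10, adjusted p = 0.0029), and these 3 calls held in 19 of 19 settings. Spred2 rose by 0.71 (SE 0.16, adjusted p = 0.017). Over the same comparison the luminal markers had a median difference of 1.19 and the white adipocyte markers of -4.92, and their part in these results was not tested.

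Errfi1, an inhibitor of Egfr kinase, measured 10.10, 9.75 and 9.96 for metastatic tumours, 10.62, 10.78 and 9.59 for non-metastatic ones and 9.47, 9.48 and 9.39 for normal glands, and did not pass. Without normal gland 2 and metastatic tumour 2 together, 0 of 21 feedback genes rose in metastatic tumours and 2 in non-metastatic tumours, with medians of 0.35 and 0.41. Without normal gland 2 alone 3 rose in each. Calls over all genes also dropped, from 1284 higher in metastatic and 1959 in non-metastatic tumours. They were 86 and 436 without both arrays, and 353 and 800 without normal gland 2 alone.

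Among 16 tested immediate early genes and ERK targets, 4 rose in metastatic tumours and 2 in non-metastatic tumours, and 0 fell in either, where 7.35% and 11.2% of all genes were called as higher. Over both groups the 4 that rose were Etv1, Etv4 and Etv5, which are ETS factors, and Ccnd1. Etv5 measured 10.07, 11.27 and 10.94 for metastatic tumours, 10.002, 9.64 and 10.64 for non-metastatic ones and 8.28, 7.50 and 8.39 for normal glands, a rise of 2.37 over both groups (SE 0.34, adjusted p = 0.0041) that lay between 1.25 and 2.55 over 19 settings. Etv4 rose by 1.78 (SE 0.41, adjusted p = 0.018), Etv1 by 1.23 (SE 0.34, adjusted p = 0.036), and Ccnd1, the cyclin D1 gene and also a known Wnt target, by 1.65 (SE 0.40, adjusted p = 0.023). The Etv1 call held in 9 of 19 settings, with an adjusted p up to 0.11 and a change down to 0.74. Fos and Fosb, rapidly induced transcription factors, did not pass and differed widely among normal glands, at 9.89, 9.65 and 6.61 for Fos. Without normal gland 2, without metastatic tumour 2 or without both, the number that rose in metastatic tumours was 1, 1 and 0. In non-metastatic tumours it was 1 each time. Over all genes, these settings gave 353, 497 and 86 as higher in metastatic tumours, against 1284 with all arrays. In non-metastatic tumours they gave 800, 1585 and 436, against 1959.

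**Figure D5:**
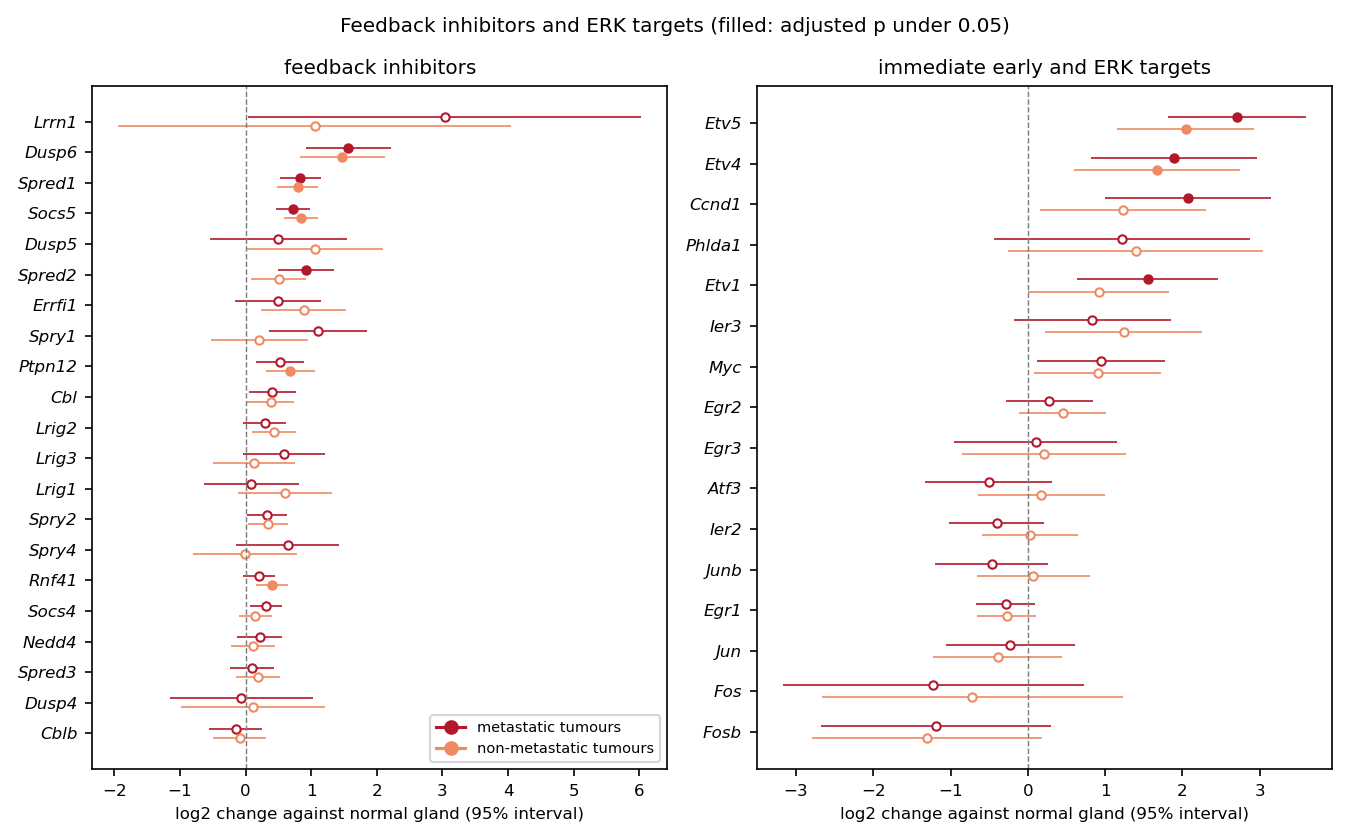
Log2 change against normal gland with its 95% interval (horizontal axis) of 21 feedback inhibitors (left) and 16 immediate early genes and ERK targets (right), 2 rows of points per gene for metastatic (upper, dark red) and non-metastatic (lower, orange) tumours. Filled points passed an adjusted p under 0.05, and Dusp6 and Etv5 are filled in both groups.

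The genes whose pattern over the 9 arrays was most like that of each family gene were named by Pearson's r of log2 values, as a description. All points share the 3 groups, so r reflects group differences as well as differences between arrays of a group. Erbb2 was nearest to Afdn (r = 0.99), a junction scaffold protein, then to Lrrc1 and Bst1. Erbb3 was nearest to Zfp101 (r = 0.995) and to Cttn (r = 0.99), which encodes the actin-binding protein cortactin. Nrg1 was nearest to Setbp1 (r = 0.99) and Fundc2, Egfr to Cav2 (r = 0.98), a caveolin, and Hbegf to S100a8 (r = 0.98), a neutrophil protein also made by stressed keratinocytes, and to Prss22, an epithelial serine protease. For Erbb4 the nearest gene was Prkaa2 (r = 0.95), a catalytic subunit of AMP-activated kinase, for Egf it was Nmur2 (r = 0.93), for Ereg Ggct (r = 0.97) and for Btc Ociad1 (r = 0.96). Nmur2 exceeded the array median on 0 of 9 arrays and spanned only 0.52, and Ociad1 spanned only 0.23. Nrg4 was nearest to Lep (r = 0.995), the leptin gene of adipocytes.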

How the data were processed

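The labels' protocols state that RNA was isolated from frozen mouse mammary tissue and labelled for Mouse Gene 2.0 ST arrays. The deposited values are log2 signals of 41345 probe sets on 9 arrays. Per the submitters' processing notes the authors made them with RMA. This method subtracts background, gives the probe values of all arrays a common distribution and then combines probes. A difference in total RNA between samples therefore cannot be seen. After combining, array medians still ranged from 5.80 to 5.94. The sources used here name neither its version nor a genome build. The number of arrays limits the precision.

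A probe set annotation gave 1 symbol to 23521 probe sets and several to 1814, and 16010 were unlisted. The probe set with the highest mean stood for a gene (22180 genes). A gene was tested if it exceeded the 30th percentile of the array on 3 or more arrays (17478 genes). With limma 3.58.1 (R 4.3.3), all 9 arrays entered 1 model with a mean for each title group, with eBayes, 6 residual degrees of freedom, two-sided tests, and Benjamini-Hochberg adjustment over all genes tested, at an adjusted p under 0.05. The printed SE is moderated. The fit was tested on simulated data. Nothing says whether mice of 1 group were handled together, so p-values measure only the spread between these mice.

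Alternatives were other filters, averaged probe sets, median centring, quantile normalisation, an intensity trend, robust eBayes and array weights. Others were only the groups compared (not for both tumour groups together), the replicate number as a block, and each array left out. Age as a covariate was fitted between the tumour groups only, so no setting against normal gland adjusted for age. Leaving out normal gland 2 and metastatic tumour 2 together was chosen after seeing the data. Named are all family genes, all other EGF-like ligands, up to 4 genes past the threshold per list and comparison, and up to 3 genes most like each family gene. The family and all gene lists were chosen with earlier results of these data known. A few other genes (Errfi1, Adam17, Fos, Fosb, Nras, Muc19, Amy1, Itgb4, Krt17, Trp63 and neighbours of Erbb2) were named outside this rule. Figures were drawn with matplotlib 3.10.9.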

Additional observations from a re-analysis of the deposited data

How the results depend on the processing

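Between metastatic and non-metastatic tumours, 1 of all genes passed and 0 family genes. The count over all genes was 0 with only the groups compared, with age as a covariate and without normal gland 2 and metastatic tumour 2 together, and 0 to 40 with 1 array left out. In non-metastatic tumours against normal gland 2 family genes passed. That count was 0 with no filter, with quantile normalisation, with only the groups compared and without both arrays, 4 with array weights, and 0 to 2 with 1 array left out. Over all genes 3288 passed there, against 5360 with array weights, 1533 with only the groups compared, 928 without both arrays, and 1319 to 3688 with 1 array left out. In metastatic tumours against normal gland 1 family gene passed, with 2 under array weights, 0 without both arrays, and 0 to 2 with 1 array left out. Over all genes 2332 passed there, against 6498 with array weights, 282 without both arrays, and 630 to 2808 with 1 array left out. Over both tumour groups 2 family genes passed, with 4 under array weights, 1 without both arrays, and 0 to 2 with 1 array left out. Over all genes 3980 passed there, against 7603 with array weights, 1330 without both arrays, and 1870 to 4094 with 1 array left out. The cause of these differences was not tested.

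Replicate numbers are shared between groups, but same-numbered arrays come from different mice. Their deviations from the group means correlated between -0.28 and 0.17, above 0.1 in 2 of 9 pairs. With the replicate number as a block, 0 family genes passed in either tumour group against normal gland and 2 over both, and over all genes 1299 passed in metastatic and 2250 in non-metastatic tumours.

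Median centring moved the split of calls against normal gland. For metastatic tumours 1728 genes were then higher and 848 lower (1284 and 1048 as reported). For non-metastatic tumours these numbers were 2900 and 1078 (1959 and 1329 as reported), and over both groups 3283 and 1303 (2385 and 1595 as reported). Erbb4, Egf, Epgn and Nrg3, Ereg outside normal gland 2, and Nrg4 in tumours, lay near or below the array median.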
